A study of Mus musculus with 8 samples.

Results

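The genes described here write or remove the methyl groups of H3K27, which is one of the 4 histone marks profiled in the study. There are 10 of them among 22367 protein-coding genes of the mouse annotation: Ezh2, Ezh1, Eed, Suz12, Jarid2, Mtf2, Phf1 and Phf19, which encode subunits of Polycomb repressive complex 2 (PRC2), and Kdm6a and Kdm6b, which encode H3K27 demethylases. They were chosen by name, for what their products do. The study profiled H3K4me3, H3K9ac, H3K27me3 and H3K36me3 by ChIP-seq in Lewis lung carcinoma, a mouse lung tumor cell line, to compare tumors that respond to VEGF-Trap, a decoy receptor that binds VEGF, with tumors that do not. LLC-NR is the drug sensitive line and LLC-R is the line made resistant by repeated rounds of VEGF-Trap treatment in mice. Both were grown as isografts under the skin of young adult female C57BL/6J mice, and nuclei of the tumor tissue were digested with micrococcal nuclease before immunoprecipitation. There was 1 library for each line and mark, 8 libraries in all (how many tumors went into a library is not given in the sources used here), so no difference between LLC-NR and LLC-R has a replicate check and no p-value is given. LLC-R is 1 selected line, and the labels do not separate its resistance from anything else that differs between the 2 lines or the 2 tumors.

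PRC2 places methyl groups on lysine 27 of histone H3. Ezh2 or its relative Ezh1 is the catalytic subunit, Eed reads the methylated product and stimulates the enzyme, and Suz12 holds the core together. Jarid2 and the Polycomb-like proteins Mtf2, Phf1 and Phf19 bring the complex to chromatin, often to CpG-rich DNA, while Kdm6a (UTX) and Kdm6b (JMJD3) take the methyl groups off. H3K4me3 and H3K9ac mark promoters in use, H3K36me3 is laid down along transcribed gene bodies, and H3K27me3 is typical of genes held silent by Polycomb.

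Each deposited file lists positions of peaks of 147 bp, the length of DNA around a nucleosome, without height or strand. A level is therefore a number of peaks: in a promoter, which covers 1 kb before and 0.5 kb after the transcription start site (TSS), or per kb of gene body, which begins where the promoter ends and runs to the annotated end of the gene. Peaks of a library never overlapped, and a promoter of 1500 bp held 9 at most. The libraries had 5660458 to 9101721 peaks, at 2.21 to 3.56 per kb of the genome. Mean promoter density was 3.27 peaks per kb for H3K4me3 in LLC-NR, beside 2.22 over the genome. For H3K27me3 in LLC-R it was 3.63 beside 3.56. For H3K36me3 it was 2.13 beside 2.51 in LLC-NR and 3.31 beside 3.42 in LLC-R. A number of peaks in a promoter is therefore not by itself an enrichment of the mark. The LLC-R library was the larger one for H3K27me3 (9101721 against 7245090 peaks) and H3K36me3 (8747519 against 6432447 peaks) and the smaller one for H3K9ac (7853593 against 8547101 peaks). For this reason each level was also divided by the mean of its library over all protein-coding genes before LLC-R was compared with LLC-NR.

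Of the 10 promoters, 9 were CpG-rich (HCPs), a class that holds 12045 of the 22367 genes. Kdm6b was the exception, with a CpG-poor promoter (LCP) at the TSS used. The 150 bases upstream of the TSS are shown for 5 genes, each for a result described further on. Ezh2, Suz12 and Eed differed by more than 1.5-fold in H3K27me3 peaks, Eed in H3K4me3 peaks too, Kdm6a had an H3K4me3 peak over the TSS without a counterpart in LLC-R, and Kdm6b is of another CpG class. They were read from NCBIM37 (mm9), 5′ to 3′ on the strand of the gene, and capitals mark CpG dinucleotides.
Ezh2, chr6:47545030-47545179, minus strand: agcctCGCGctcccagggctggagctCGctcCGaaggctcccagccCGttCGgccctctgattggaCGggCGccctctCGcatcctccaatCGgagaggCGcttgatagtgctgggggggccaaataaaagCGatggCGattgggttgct
Eed, chr7:97129494-97129643, minus strand: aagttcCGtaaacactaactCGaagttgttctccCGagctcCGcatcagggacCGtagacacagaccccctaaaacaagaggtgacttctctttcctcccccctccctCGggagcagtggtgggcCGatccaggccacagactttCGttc
Suz12, chr11:79806458-79806607, plus strand: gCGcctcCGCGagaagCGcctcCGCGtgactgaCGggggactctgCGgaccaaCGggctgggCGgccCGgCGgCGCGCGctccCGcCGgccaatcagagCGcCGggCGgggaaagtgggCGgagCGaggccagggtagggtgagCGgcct
Kdm6a, chrX:17739551-17739700, plus strand: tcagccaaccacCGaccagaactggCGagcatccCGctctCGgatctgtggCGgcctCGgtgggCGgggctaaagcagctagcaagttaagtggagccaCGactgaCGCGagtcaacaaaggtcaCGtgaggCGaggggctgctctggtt
Kdm6b, chr11:69227178-69227327, minus strand: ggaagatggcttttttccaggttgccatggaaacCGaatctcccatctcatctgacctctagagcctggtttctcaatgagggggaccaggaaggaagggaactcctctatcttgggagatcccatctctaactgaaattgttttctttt
The window of Suz12 holds 23 CpGs, that of Ezh2 13, that of Kdm6a 12, that of Eed 8 and that of Kdm6b 1. The median over all protein-coding genes was 6 CpGs in the same window. These windows contain no annotated exon, although the Ezh2 window lies downstream of another annotated start of the gene.

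On the same assembly, Ezh2 lies at chr6:47480273-47545340, Ezh1 at chr11:101052429-101087777, Eed at chr7:97103166-97129493 and Suz12 at chr11:79806608-79847625. The accessory subunits are Jarid2 at chr13:44824843-45017012, Mtf2 at chr5:108494693-108538023, Phf1 at chr17:27070072-27074835 and Phf19 at chr2:34749277-34769546. Kdm6a lies at chrX:17739701-17857062 and Kdm6b at chr11:69212010-69227177. The shortest is Phf1 (4.76 kb) and the longest Jarid2 (192.2 kb). Other annotated genes overlap 6 of them, namely Gm17629 (Ezh2), Gm16706 (Suz12), SNORA61 (Jarid2), Tmed5 (Mtf2), Gm13448 (Phf19) and 1700064E03Rik (Kdm6b), and peaks without strand cannot be divided between such genes.

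In LLC-NR, the promoters of all 10 genes held at least the mean number of H3K4me3 peaks over all promoters, and in LLC-R 7 of 10 did. Over all protein-coding genes these shares were 63.8% and 58.8%. For H3K9ac, 8 of 10 promoters reached the mean in LLC-NR and 9 of 10 in LLC-R, beside 62.2% and 70.4% of all genes. For H3K27me3, 6 of 10 reached it in LLC-NR and 4 of 10 in LLC-R, beside 56.5% and 58.7%. Of CpG-rich promoters, 89.3% reached the H3K4me3 mean in LLC-NR and 83.7% in LLC-R. For H3K9ac these shares were 68.7% and 75.9%, and for H3K27me3 56.6% and 57.6%. With the H3K4me3 mean of CpG-rich promoters in LLC-NR as the threshold, 4 of the 10 genes were at or above it.

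**Figure D1:**
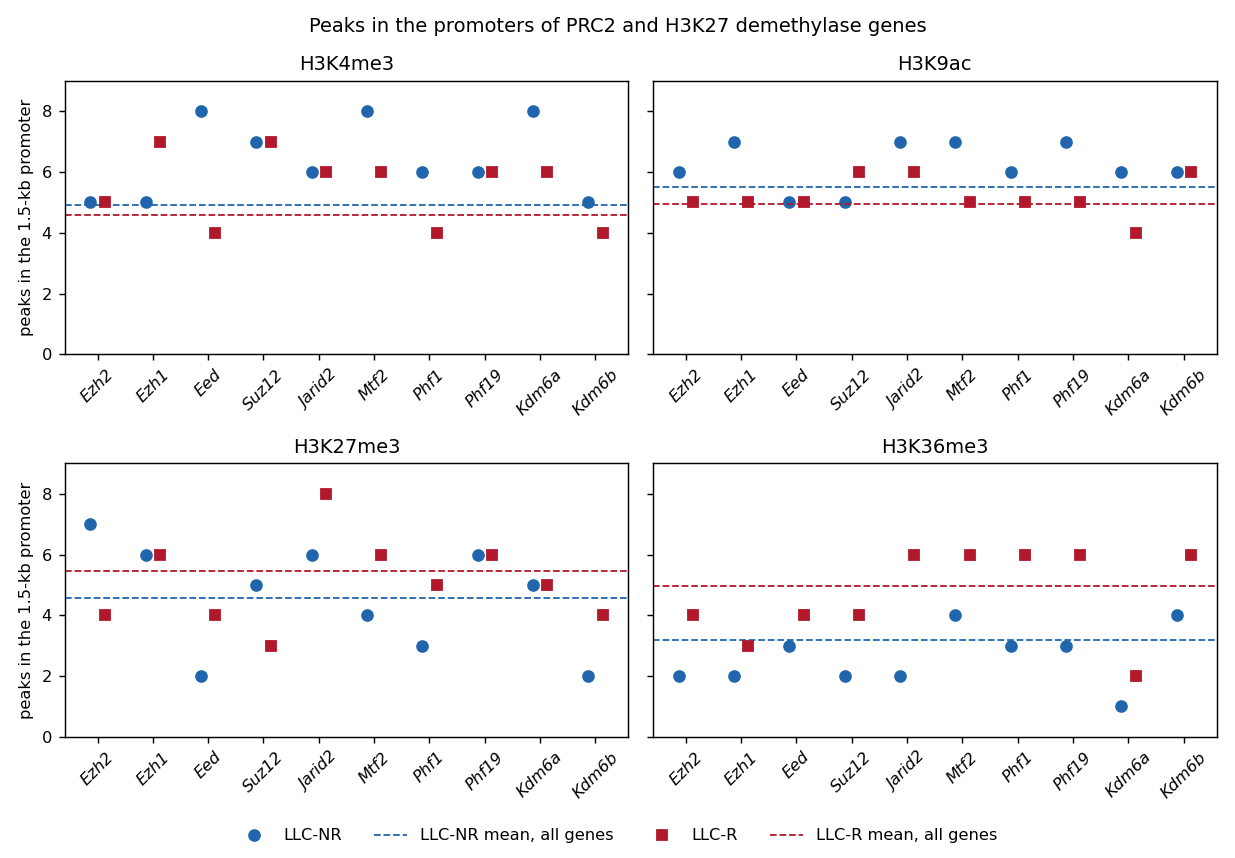
Number of peaks in the 1.5-kb promoter of each gene in LLC-NR (blue circles) and LLC-R (red squares), 1 library each, with a panel for each mark; dashed lines give the mean over all protein-coding genes. In the H3K27me3 panel, Ezh2 went from 7 to 4 peaks and Suz12 from 5 to 3, below the LLC-R mean of 5.45, while Jarid2 went from 6 to 8.

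Ezh2 and Suz12 had fewer H3K27me3 peaks in the promoter in LLC-R, and Eed had fewer H3K4me3 peaks. For Ezh2, the catalytic subunit found mainly in dividing cells, the promoter had 7 H3K27me3 peaks in LLC-NR against 4 in LLC-R. After division by the library means, 4.55 and 5.45 peaks, this is a log2 ratio of -0.97, with a 95% counting interval of -3.29 to 0.91. This ratio lay at percentile 0.680 of all protein-coding genes and was the lowest of the 10. The promoter had 5 H3K4me3 peaks in both lines, 6 H3K9ac peaks in LLC-NR against 5 in LLC-R, and 2 H3K36me3 peaks against 4.

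Suz12, the scaffold subunit, had 5 H3K27me3 peaks in LLC-NR against 3 in LLC-R, a log2 ratio of -0.88 (counting interval -3.68 to 1.37) at percentile 1.03 of all genes. Its H3K4me3 count was 7 in both lines, and H3K9ac had 5 and 6 peaks. At Ezh2 and Suz12, then, the lower H3K27me3 count stood beside an equal number of H3K4me3 peaks. Ezh1, the catalytic subunit that is also common in resting cells, had 6 H3K27me3 peaks in both lines, 2 of them at the same place within 20 bp. H3K4me3 at Ezh1 had 5 peaks in LLC-NR against 7 in LLC-R, a log2 ratio of 0.54, and H3K9ac 7 and 5.

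Eed showed the opposite order for H3K27me3. It had 2 H3K27me3 peaks in LLC-NR against 4 in LLC-R, a log2 ratio of 0.63 (counting interval -2.06 to 4.21). Its H3K4me3 peaks numbered 8 in LLC-NR against 4 in LLC-R, a log2 ratio of -0.84 (counting interval -3.09 to 0.99) at percentile 3.39, whereas H3K9ac had 5 peaks in both. At this start, the lower number of active peaks was thus seen in H3K4me3 and not in H3K9ac. The other annotated start of Eed lies 424 bp downstream, and each of them has 1 transcript. It had 2 and 3 H3K27me3 peaks, 7 and 4 H3K4me3 peaks, and 5 and 4 H3K9ac peaks.

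Among the accessory subunits, Jarid2 had the most H3K27me3 peaks in LLC-R. Its promoter had 6 H3K27me3 peaks in LLC-NR against 8 in LLC-R, where it stood at percentile 97.6 of all promoters, together with 6 H3K4me3 peaks in both lines. Its H3K36me3 went from 2 to 6 peaks, a log2 ratio of 0.85 (counting interval -1.53 to 4.29). Jarid2 has 17 annotated starts, of which the most upstream was used. The starts 61 and 321 bp downstream had 6 H3K27me3 peaks against 7 and 8. At those 1300 to 1385 bp downstream, H3K27me3 had 4 peaks against 5 or 6, and H3K36me3 1 or 2 against 3. Mtf2, a Polycomb-like protein that binds unmethylated CpG DNA, had 8 H3K4me3 peaks in LLC-NR against 6 in LLC-R, and 4 of H3K27me3 against 6. Phf1 went from 6 to 4 peaks for H3K4me3 and from 3 to 5 for H3K27me3. Phf19 had 6 peaks of both marks in both lines. Mtf2 and Phf1 thus had fewer H3K4me3 and more H3K27me3 peaks in LLC-R, each by 2 peaks.

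The demethylase Kdm6a, on the X chromosome, had 8 H3K4me3 peaks in LLC-NR against 6 in LLC-R, H3K9ac 6 and 4, and H3K27me3 5 in both lines. H3K36me3 was sparse at this promoter, with 1 peak in LLC-NR against 2 in LLC-R. Kdm6b had 5 and 4 H3K4me3 peaks, 6 H3K9ac peaks in both lines, and 2 and 4 H3K27me3 peaks, a log2 ratio of 0.63. Its other annotated start, 9460 bp downstream, had 4 and 6 H3K27me3 peaks and 5 and 6 H3K4me3 peaks.

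Past a ratio of 1.5-fold, the members with a different H3K27me3 count were Ezh2 and Suz12 (lower in LLC-R) and Eed and Kdm6b (higher), 4 of 10 beside 17.2% of all genes. When libraries were scaled by uniquely mapped reads, the ratios of Eed and Kdm6b fell below 0, to -0.21 each, and with total peaks as the scale or a pseudocount of 1 peak, 2 of 10 (Ezh2 and Suz12) were left. By mapped reads 6 of 10 passed, all of them lower in LLC-R. On that scale the median log2 ratio of all genes was itself -0.84, past 1.5-fold, so most genes passed as well. With the library means as scale, H3K4me3 had 1 of 10, Eed, beside 16.3%, and H3K36me3 1 of 10, Jarid2, beside 33.4%. No promoter of the 10 passed for H3K9ac, beside 11.3% of all genes. The counts of H3K4me3, H3K9ac and H3K36me3 were thus near or under the background, and the 95% counting interval of each of the 40 promoter ratios included 0. At these numbers of peaks a difference at a single promoter cannot be told from counting error, and in tumor tissue a different number of cells with a mark cannot be told apart from a different amount of the mark in each cell.

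A promoter was called active when H3K4me3 or H3K9ac, and not H3K27me3, was at or above the library mean, and bivalent when H3K27me3 was at or above it too. The paper's Methods use normalized tag counts and ask for 2 times the mean in H3K4me3 or H3K9ac. The states given here are therefore not comparable with those of the paper. In LLC-NR, Eed, Mtf2, Phf1 and Kdm6b were active, 4 of 10 beside 29.8% of all genes, and the other 6 were bivalent, beside 48.3%. In LLC-R, Ezh2, Eed, Suz12, Phf1, Kdm6a and Kdm6b were active, 6 of 10 beside 28.4%, and Ezh1, Jarid2, Mtf2 and Phf19 were bivalent, 4 of 10 beside 52.9%. Ezh2, Suz12 and Kdm6a went from bivalent to active and Mtf2 from active to bivalent, so that 4 of 10 had another state in LLC-R, beside 37.9% of all genes. Kdm6a changed state at an equal number of H3K27me3 peaks, 5, which lay above the LLC-NR mean and below the LLC-R mean, and 2 of its 5 LLC-R peaks had an LLC-NR peak within 20 bp. No member was repressive (H3K27me3 alone) or without marks in either line. Of all genes, 8.20% in LLC-NR and 5.73% in LLC-R were repressive, and 13.6% and 12.9% were without marks. Of CpG-rich promoters, 4.52% and 3.23% were repressive, and 3.11% and 3.83% were without marks.

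The positions of peaks show where the numbers differed. In LLC-NR, H3K27me3 peaks of Ezh2 were centred 134 bp upstream and 110 bp downstream of the TSS, inside and next to the window printed above. In LLC-R the nearest ones lay 235 bp upstream and 162 bp downstream, and the number of LLC-R peaks at Ezh2 that had an LLC-NR peak within 20 bp was 0 of 4. At Suz12, the LLC-NR peaks at 124 bp upstream and 114 bp downstream had no counterpart in LLC-R, where the nearest were 363 bp upstream and 296 bp downstream. The H3K27me3 gap over the TSS was therefore wider in LLC-R at both genes, 397 against 244 bp at Ezh2 and 659 against 238 bp at Suz12. Kdm6b was the reverse, with no H3K27me3 peak between 147 bp upstream and 1650 bp downstream in LLC-NR and peaks at 54 bp upstream and 138 bp downstream in LLC-R.

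**Figure D2:**
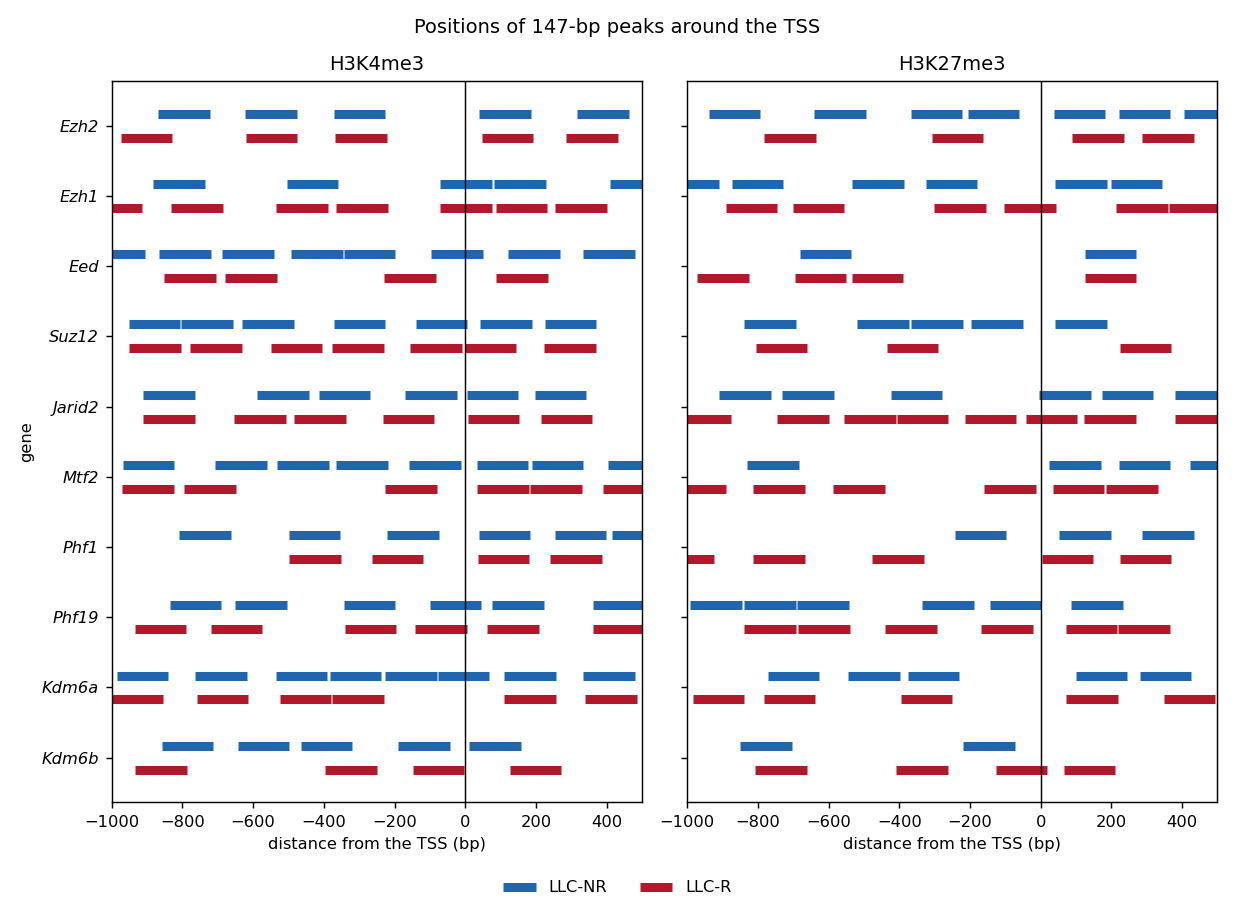
Positions of H3K4me3 (left) and H3K27me3 (right) peaks around the TSS of each gene, in bp, with each bar 1 peak of 147 bp, LLC-NR in blue and LLC-R in red. At Ezh2 and Suz12, the LLC-NR H3K27me3 peaks centred 134 and 124 bp upstream of the TSS have no LLC-R peak at the same place, and Mtf2 has its first downstream peak at 97 to 107 bp in all 4 rows shown.

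The first peak downstream of the TSS, usually the first nucleosome of the gene, was compared between the lines. For H3K4me3 it lay within 20 bp of the same place in both lines at 7 of 10 genes, beside 36.6% of all genes and 52.9% of CpG-rich ones. For H3K9ac this was 7 of 10 beside 34.8%, and for H3K27me3 3 of 10 beside 25%. At Kdm6a the first H3K4me3 peak was 184 bp downstream in LLC-NR and 183 bp in LLC-R, while the peak centred 5 bp upstream of the TSS in LLC-NR had no match in LLC-R, where the nearest upstream peak was at 304 bp. At Eed the peak centred 23 bp upstream in LLC-NR was likewise without a match, and the nearest in LLC-R was at 157 bp. The gap in H3K4me3 over the TSS was wider in LLC-R at 8 of 10 genes, beside 53.9% of all genes, with medians of 196 bp in LLC-NR and 284.5 bp in LLC-R.

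Mtf2 had the most fixed first peak. It was centred 106 and 107 bp downstream of the TSS for H3K4me3 in LLC-NR and LLC-R, 104 and 106 bp for H3K9ac, 97 and 107 bp for H3K27me3, and 103 and 102 bp for H3K36me3. All 8 libraries thus placed it within 10 bp, which held for 54 of 22365 genes (0.241%). Mtf2 was singled out after its positions were seen. For Phf19 the peak was at 135 to 159 bp and for Kdm6a at 145 to 187 bp in the 6 libraries other than H3K36me3. For Kdm6b, the CpG-poor promoter, the range was 84 to 1650 bp.

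Over the 10 promoters together, 30 of 55 LLC-R peaks of H3K4me3 (54.5%, exact binomial interval 40.6 to 68.0%) had an LLC-NR peak of the same mark within 20 bp, beside 40% over all promoters and 48.2% over CpG-rich ones. For H3K9ac 29 of 52 were matched (55.8%, beside 44.8%), for H3K27me3 14 of 51 (27.5%, beside 29.5%) and for H3K36me3 10 of 47 (21.3%, beside 21.9%). All 6 LLC-R peaks of H3K4me3 at Kdm6a were matched and 0 of 4 at Kdm6b. Within a line, 22 of 46 H3K27me3 peaks in LLC-NR (47.8%, interval 32.9 to 63.1%) were within 20 bp of an H3K4me3 peak, beside 32.5% over all promoters and 39.4% over CpG-rich ones. In LLC-R it was 13 of 51 (25.5%, interval 14.3 to 39.6%), beside 28.0% and 33.5%. The intervals of the 2 lines overlap, and the share over all promoters was lower in LLC-R as well.

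Along their bodies, all 10 genes reached the mean in H3K36me3. The density was at or above it in 10 of 10 genes in both lines, beside 56% of all genes with a measurable body in LLC-NR and 68.6% in LLC-R. Of genes with CpG-rich promoters, 71.9% and 82.1% reached it. In LLC-NR it ranged from 3.27 peaks per kb in Kdm6b to 4.46 in Phf1, with a mean over all genes of 2.95. In LLC-R the range was 4.06 in Kdm6a to 5.16 in Phf1, with a mean of 3.72. Suz12 (4.34 peaks per kb) and Phf1 stood at percentiles 98.1 and 99.0 in LLC-NR, and Kdm6b was lowest at percentile 56.5. In LLC-R the percentiles ran from 57.9 (Kdm6a) to 99.4 (Phf1). Among genes with CpG-rich promoters, Kdm6a, Kdm6b and Jarid2 were at percentiles 44.3, 47.0 and 49.4 in LLC-R. The H3K36me3 density exceeded that of the 500 kb on either side in all 10 genes and both lines, from 1.02 times (Kdm6b, LLC-R) to 2.19 times (Kdm6a, LLC-NR). Bodies and flanks were not compared over all genes, so whether this is particular to the 10 genes was not tested.

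H3K27me3 was low in the same gene bodies in LLC-NR. It was under the mean of 2.76 peaks per kb in all 10 genes. Thus 0 of 10 reached it, beside 48.5% of all genes and 38.5% of those with CpG-rich promoters. The values ran from 1.77 peaks per kb in Kdm6b and 1.83 in Kdm6a to 2.5 in Jarid2 and 2.58 in Phf1. In LLC-R the values ran from 3.26 in Kdm6a to 4.46 in Phf1. The mean of 3.62 was reached by 6 of 10, beside 64.7% of all genes and 64.3% of those with CpG-rich promoters. In LLC-NR the body was poorer in H3K27me3 than its flanks at all 10 genes, 0.573 to 0.886 times the flank density, while in LLC-R the ratios were 0.846 to 1.13. Here too the share over all genes was not measured.

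**Figure D3:**
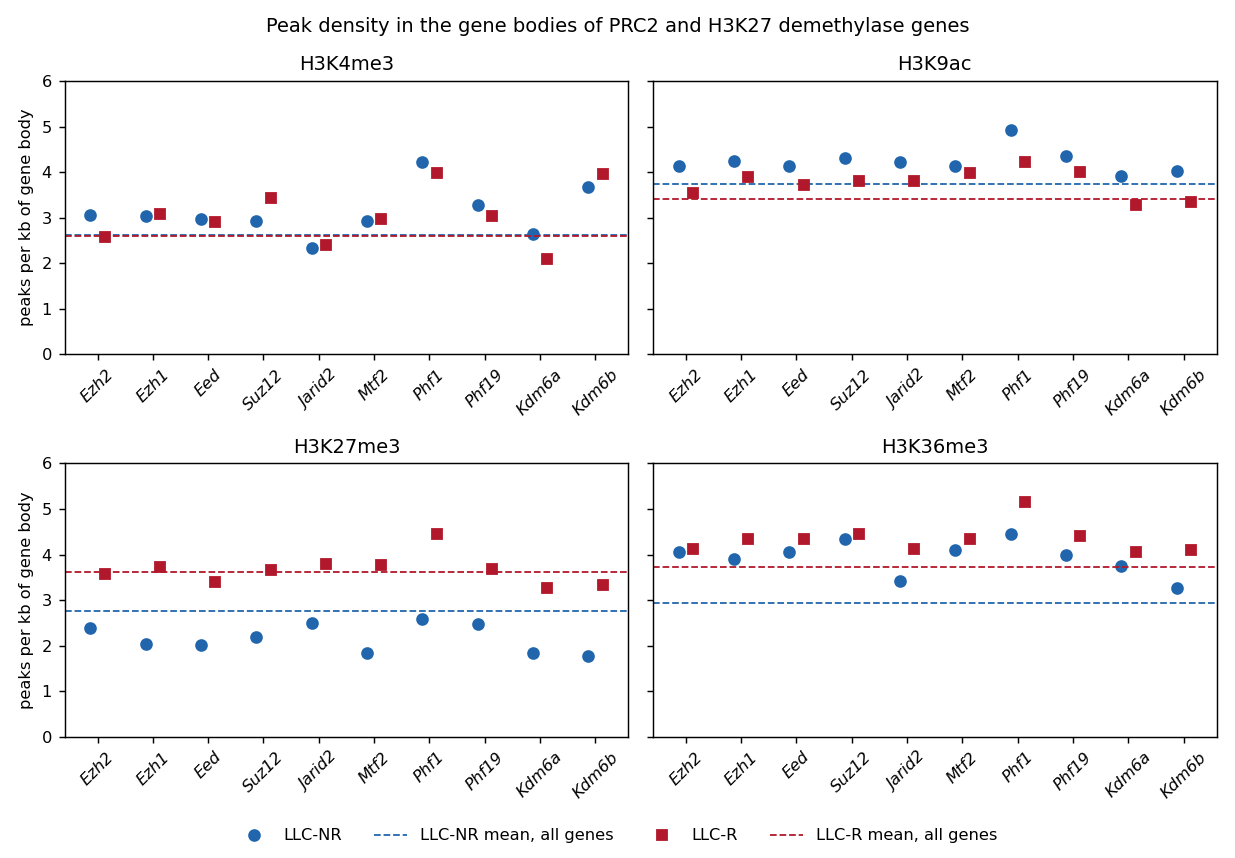
Peaks per kb of gene body of each gene in LLC-NR (blue circles) and LLC-R (red squares), 1 library each; dashed lines give the means over all protein-coding genes with a body of at least 0.5 kb. H3K36me3 lies above its mean at all 10 genes in both lines, and H3K27me3 lies below its mean of 2.76 at all 10 in LLC-NR.

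H3K4me3 was at or above the mean along the body of 9 of 10 genes in LLC-NR and 7 of 10 in LLC-R, beside 53.9% and 55.3% of all genes. For H3K9ac it was 10 of 10 and 8 of 10, beside 71.5% and 69.7%. Of genes with CpG-rich promoters, 65.4% and 68.5% reached the H3K4me3 mean, and 83.6% and 81.2% the H3K9ac mean. Kdm6a had the lowest H3K4me3 density in LLC-R, 2.09 peaks per kb against 2.64 in LLC-NR. Within the bodies, H3K4me3 was densest in the first 25% of the length, with medians of 3.50 peaks per kb in LLC-NR against 3.51 in LLC-R, and in the last 25% the medians were 2.74 and 2.87. H3K36me3 was nearly level, with medians from 3.86 to 4.09 over the 4 parts in LLC-NR.

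Relative to the library means, H3K27me3 in gene bodies gave a higher value for LLC-R at all 10 genes, and a lower one at all 10 when libraries were scaled by uniquely mapped reads. The log2 ratios were 0.57 for Mtf2, 0.46 for Kdm6b, 0.43 for Ezh1, 0.39 for Kdm6a, 0.36 for Phf1 and 0.33 for Eed, the 6 of 10 that were higher by 25% or more, beside 19.6% of all genes that were higher by that factor (30% were higher or lower). By mapped reads, 0 of 10 were higher and 6 lower by it, on a scale where the median of all genes was -0.69. Suz12 (0.31), Jarid2 (0.18), Phf19 (0.17) and Ezh2 (0.16) were under that fold. In peaks, Mtf2 had 79 in LLC-NR against 161 in LLC-R over 42.8 kb, and Kdm6a 214 and 381 over 116.9 kb. Counting intervals excluded 0 for Mtf2 (0.24 to 1.04), Ezh1 (0.05 to 0.92), Kdm6a (0.19 to 0.69) and Jarid2 (0.03 to 0.37). They included 0 for the other 6, among them the short Phf1 with 11 and 19 peaks.

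The median log2 ratio of the 10 genes was 0.34 and that of all genes 0.02. With uniquely mapped reads as the scale, the median of all genes moved to -0.69 and that of the 10 genes to -0.36, so that the ratios of the 10 genes were then below 0 at the median but still above the median of all genes, at 10 of 10. Genes with the same LLC-NR density had ratios of the same size. For each of the 10 genes the ratio was set beside the 1000 genes with the nearest LLC-NR density, a comparison added after the data were seen. The median of these like genes, taken over the 10 comparisons, was 0.32. The 10 genes lay above their like genes in 6 cases and below in 4, and 0 of 10 differed from them by that factor. Phf1 was at percentile 99.3 of its like genes and Mtf2 at 88.9, with the other 8 between 34.0 and 78.1. The spread of densities over all genes was also narrower in LLC-R, with an SD of 25.8% of the mean against 38.2% in LLC-NR.

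**Figure D4:**
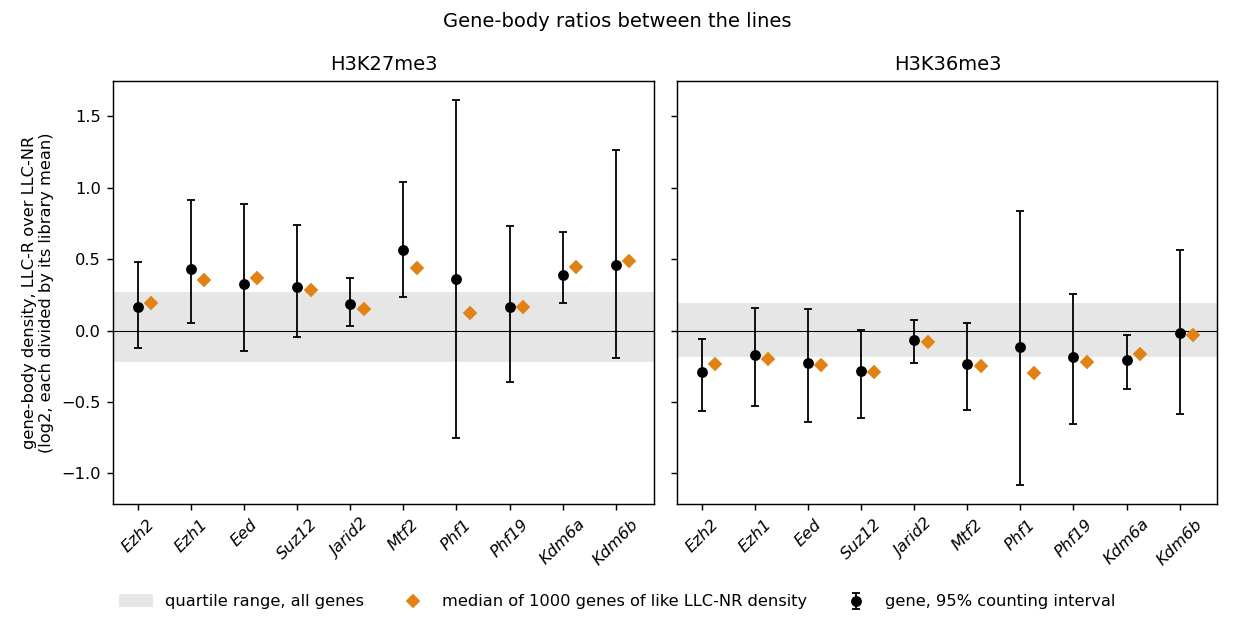
Log2 ratio of gene-body density, LLC-R over LLC-NR, each divided by its library mean, for H3K27me3 (left) and H3K36me3 (right); black points are the 10 genes with 95% counting intervals, orange diamonds the median of 1000 genes of like LLC-NR density, and the grey band the quartiles of all genes. The H3K27me3 points run from 0.16 to 0.57 and sit close to their diamonds; with scaling by uniquely mapped reads, which moves all genes together, all 10 fall below 0.

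For H3K36me3 the ratios of the gene bodies pointed the other way. The log2 ratios ran from -0.29 (Ezh2) to -0.01 (Kdm6b), and 0 of 10 passed the factor, beside 17% of all genes, while 4 of 10 were lower by it when libraries were scaled by total peaks and 10 of 10 when they were scaled by uniquely mapped reads (median -1.07, beside -0.88 for all genes). The median was -0.19 against -0.23 for genes of like LLC-NR density. Ezh2 had 260 and 265 peaks and Kdm6a 438 and 475, so that the number of peaks was higher in LLC-R while the level relative to the library mean was lower. Their intervals, -0.56 to -0.06 and -0.41 to -0.03, excluded 0. No gene passed the fold for H3K4me3 (beside 14.6%) or H3K9ac (beside 6.71%). By mapped reads 2 of 10 were higher by it for H3K4me3 and 10 of 10 for H3K9ac. That scale moved the medians of all genes to 0.27 and 0.68. For H3K4me3 the interval of Kdm6a excluded 0 (-0.57 to -0.07, log2 ratio -0.29).

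A comparison of promoter and body inside 1 library needs no scaling between libraries. In LLC-NR, H3K27me3 was denser in the promoter than in the body at 7 of 10 genes, beside 62.8% of all genes. Ezh2 had 4.67 peaks per kb in the promoter and 2.40 in the body, a difference at percentile 98.0 of all genes, and Ezh1 had 4.0 and 2.04. In LLC-R the promoter was denser at 5 of 10 genes, beside 52.6%. Ezh2 then had 2.67 and 3.56, at percentile 11.9, and Suz12 2.0 and 3.65, at percentile 2.66. Jarid2 was dense in the promoter in both lines, with 4.0 against 2.5 in LLC-NR and 5.33 against 3.78 in LLC-R. The order of promoter and body was reversed between LLC-NR and LLC-R at Ezh2 and Suz12 only.

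**Figure D5:**
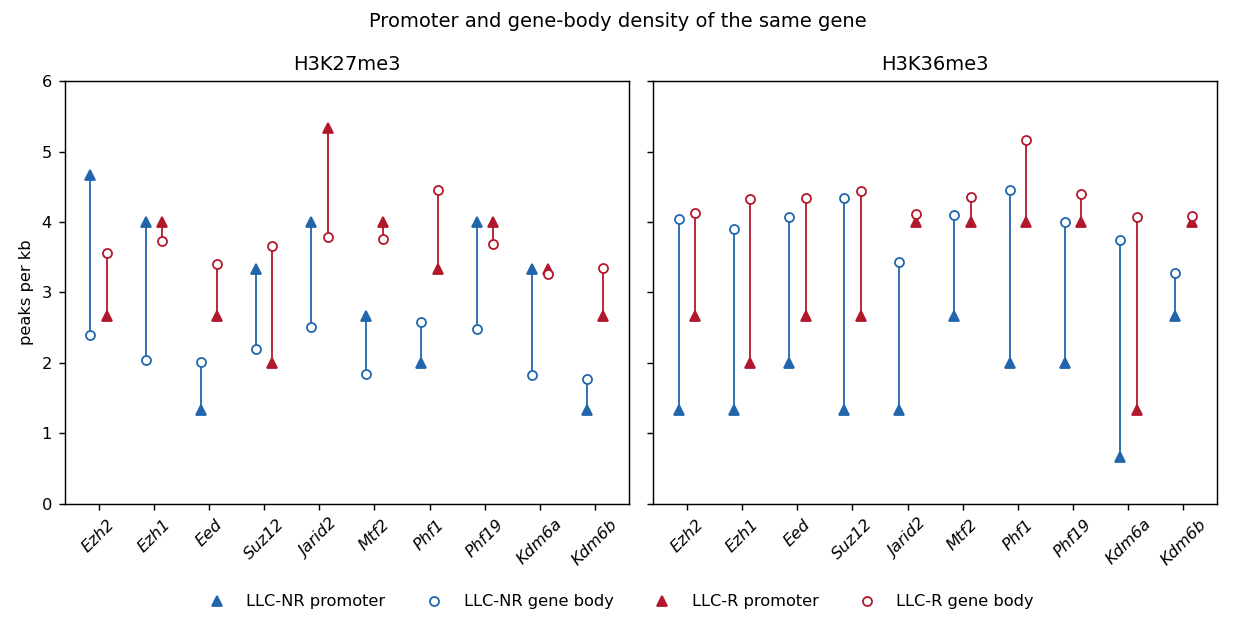
Peaks per kb in the promoter (triangles) and in the gene body (open circles) of each gene for H3K27me3 (left) and H3K36me3 (right), LLC-NR in blue and LLC-R in red. For H3K27me3, the promoter triangle of Ezh2 is above the body circle in LLC-NR (4.67 against 2.40) and under it in LLC-R (2.67 against 3.56). For H3K36me3 the body is denser at all 10 genes in both lines. Of all genes, 25.4% in LLC-NR and 33.2% in LLC-R had the denser promoter.

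Over all genes, the promoter was denser in H3K36me3 than the body at 25.4% in LLC-NR and 33.2% in LLC-R. Of the 10 genes, the body was denser at 10 of 10 in both lines. The annotated starts inside these genes were counted too. Their windows lie in the gene bodies already counted, so they are not a separate check. At 33 starts of 8 of the genes that lie 1.5 kb or more from the main one, the promoter-sized window had a median of 6 H3K36me3 peaks in LLC-NR against 7 in LLC-R, whereas the medians were 2.5 and 5 at the 10 main starts. H3K27me3 had medians of 3 and 6 at these inner starts and 5 and 5 at the main ones. H3K4me3 differed less, with 5 and 5 against 6 and 6. Many of the inner starts lie near each other, so they are not independent.

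Rbbp4 and Rbbp7, which encode histone-binding subunits of PRC2, Aebp2, an accessory subunit, and Uty, the Y-linked relative of Kdm6a, were counted beside the 10 genes. In gene bodies, Rbbp4 (log2 ratio 0.63) and Uty were higher by 25% or more for H3K27me3, 2 of 4 beside 19.6% of all genes, and Rbbp7 (0.12) and Aebp2 (0.32) were not. Uty stood apart. Its promoter held 0 peaks of each mark in LLC-NR and 4 of H3K4me3, 2 of H3K9ac, 3 of H3K27me3 and 2 of H3K36me3 in LLC-R. Its body of 148.4 kb held 2, 23, 3 and 0 peaks in LLC-NR, against 109, 167, 186 and 407 in LLC-R, in the same order of marks. The Y chromosome as a whole had 48 to 328 peaks in the LLC-NR libraries and 1497 to 3205 in those of LLC-R. The host mice were female, and the source of this difference was not tested. Kdm6a, on the X chromosome, had peaks of all 4 marks in both lines, as described above.

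Genes with related functions were counted in the same way, beside 19.6% of all genes that were higher and 10.4% that were lower by that factor. For H3K27me3 in gene bodies, the writers and erasers of H3K4 methylation had 8 of 14 genes higher by 25% or more and 0 lower (median log2 ratio 0.37), those of H3K36 methylation 3 of 9 higher (0.27), those of H3K9 acetylation 3 of 7 higher (0.29), and PRC1, the partner complex that binds H3K27me3, 3 of 21 higher and 1 lower (0.08). Of 16 housekeeping genes 10 were higher, with median densities of 1.36 in LLC-NR against 3.32 in LLC-R. Of 19 known Polycomb targets, such as Hoxa9 and Hoxa13, 0 were higher and 7 lower, and their median densities were 4.11 and 4.39. The medians of the 10 genes, 2.12 and 3.67, lay between those of the housekeeping genes and the Polycomb targets in both lines. All these directions are relative to the library means, since scaling by uniquely mapped reads shifts every gene down by the same amount. In promoters, the Polycomb targets had medians of 6 and 7 H3K27me3 peaks, beside 5 and 6 over all genes. Their medians for H3K4me3 (5 and 5) and H3K9ac (6 and 5) equalled those of all genes. Promoter counts thus separated these targets little from other genes, which limits the promoter states given above.

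Markers of the cells that an isograft can hold were measured beside these genes. H3K4me3 peaks in the promoters of 8 leukocyte markers ranged from 2 to 7 in LLC-NR and from 1 to 7 in LLC-R, those of 5 endothelial markers from 3 to 6 and 3 to 5, those of 5 fibroblast markers from 4 to 6 and 3 to 7, and those of 4 epithelial markers from 4 to 6 in both. No marker was at 0 for H3K4me3, and the median over all promoters was 5 peaks in both lines. As stated above, a number of peaks is not by itself an enrichment. Past 1.5-fold, 2 of 8 leukocyte markers were lower in LLC-R (Ptprc, with 7 and 4 peaks, and Cd3e, with 2 and 1). Tek, of the endothelial markers, and Epcam, of the epithelial ones, were higher (3 and 5, and 4 and 6 peaks). Of all genes, 8.63% were higher and 7.66% lower past this fold. For H3K27me3 in gene bodies the median log2 ratios were -0.23 for leukocyte, -0.23 for endothelial, -0.20 for fibroblast and 0.0019 for epithelial markers, beside 0.34 for the 10 genes. The part of host cells in the results was not tested.

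The genes most like each member over 16 values, which are the promoter and body levels in the 8 libraries as z-scores, were not other members. The nearest to Mtf2 was Rbbp5 (distance 0.927), to Phf19 Actr2 (0.868), to Suz12 Xpo1 (1.07), to Jarid2 Kank2 (1.05) and to Ezh1 Cmas (1.01). For Ezh2 it was Nipbl (1.39), for Eed Tfb2m (1.18), for Phf1 Rbm8a (1.38), for Kdm6a Tdrd3 (1.22) and for Kdm6b Prrg2 (1.44). The closest pair within the 10 genes was Mtf2 and Phf19, 1.79 apart, and the nearest other member ranked 318 to 2084 among 20473 genes. The nearest other member lay 1.79 to 2.88 away, beside median distances to all genes of 3.24 (Phf19) to 4.55 (Kdm6a). With so few members among 20473 genes, the nearest gene was unlikely to be a member. Whether the 10 genes form a group in these levels was therefore not tested.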

How the data were processed

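The authors mapped ChIP-seq reads to mm9 with Bowtie 0.12.7 and called peaks from the uniquely mapped ones, library by library, with GeneTrack, whose settings are not given in the sources used here. No input library was used here. The deposited files give the start and end of each peak only, so midpoints of peaks were counted. Gene models were GENCODE vM1 on NCBIM37 (mm9). Each gene had the TSS shared by most transcripts, the upstream one in a tie. Ratios carry a pseudocount of 10% of the library mean, and 20474 genes with a body of at least 0.5 kb entered body comparisons. HCPs have a 500-bp interval with at least 55% G/C and a CpG ratio of 0.6, and LCPs none with 0.4. Intervals are exact binomial at 95% and cover counting error only. No test between the lines was possible with 1 library each. Percentiles are among all protein-coding genes of the same library. All 10 genes are named; of each other list, the genes with the largest ratios could be. The genes and lists were chosen with earlier results of these data known. Counting and matching were checked on simulated data. Python 3.11.15, NumPy 2.4.6, SciPy 1.17.1 and pandas 2.3.3 were used.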

Additional observations from a re-analysis of the deposited data

How the results depend on the processing

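Ratios between the lines depended on the scale. With uniquely mapped reads, the promoter log2 ratios of Eed and Kdm6b for H3K27me3 became -0.21 each, and the gene-body ratios became -0.28 for Ezh1, -0.38 for Eed, -0.14 for Mtf2, -0.35 for Phf1, -0.32 for Kdm6a and -0.25 for Kdm6b. The numbers of genes past 1.5-fold in promoters then were 2 for H3K4me3, 4 for H3K9ac and 4 for H3K36me3, and past the 25% bar in bodies 2 for H3K4me3, 10 for H3K9ac and 10 for H3K36me3. This scale moved the median body ratio of all genes to 0.27 for H3K4me3, 0.68 for H3K9ac, -0.69 for H3K27me3 and -0.88 for H3K36me3. The median promoter ratio of all genes moved to 0.26 for H3K4me3, 0.61 for H3K9ac, -0.84 for H3K27me3 and -0.58 for H3K36me3. With total peaks, 2 promoters passed for H3K27me3 and 4 bodies for H3K36me3, and with flanking regions 2 bodies for H3K36me3. Against genes of like LLC-NR density, added after seeing the data, 0 bodies passed for H3K27me3, and the ratios were -0.041 for Eed, -0.057 for Kdm6a and -0.024 for Kdm6b. A promoter reaching 1 kb downstream gave 0 genes for H3K4me3 and 2 for H3K36me3, any overlap gave 3 for H3K36me3, and a pseudocount of 1 peak gave 2 for H3K27me3. With the mean of CpG-rich promoters as threshold, 4 genes reached it for H3K4me3 in LLC-NR and 3 for H3K9ac in LLC-R. Within 10 bp, 40% of H3K4me3 and 9.80% of H3K27me3 peaks were matched. For H3K27me3, mapped reads left the count of bodies at 6 but turned it from 6 higher to 6 lower, with Eed and Phf1 in both sets, and gave 6 promoters, all lower, in place of 2 higher and 2 lower. Counts not named here stayed within 1.5 times their reported value, and shares not named here within their intervals. No paired analysis was possible because each line and mark has 1 library, and for the same reason no library could be left out.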
